A study of Drosophila melanogaster with 12 samples.

Results

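Heads of dppil4 knockdown flies (Drosophila melanogaster) were compared between ZT16, in the dark phase, and ZT8, in the light phase. The comparison rests on 6 of the 12 libraries of the series, 3 at each time, and the 6 control libraries serve here as a second time comparison of the same kind. Knockdown flies carried UAS-dicer2 over UAS-dppil4 RNAi, with the driver tim(UAS)-Gal4/+, and control flies had UAS-dicer2/+ with the same driver, so every group carried the extra dicer2 transgene and the driver and only the knockdown flies carried the hairpin. The driver acts in clock cells, while the RNA came from whole heads with the brain, which hold many cells outside its reach. Flies of every group lived under a schedule of 12 h light and 12 h dark, and their heads were taken on day 4. The age and the sex of the flies and the number of heads per library are not given in the sources used here. The labels do not say that the libraries came from separate collections of flies, so the p-values measure the spread between libraries, which may be technical.

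The fly clock is a feedback loop of transcription. The proteins of Clk and cyc switch on per and tim around dusk, PER and TIM then enter the nucleus and hold the activators back late at night, and a second loop through vri and Pdp1 sets the level of Clk. The product of cry, a blue-light photoreceptor, triggers the loss of TIM in the light. In heads, per and tim RNA are known to be high early in the night and Clk and cry RNA around dawn, and the clock runs in clock neurons, photoreceptors and glia. The protein dPPIL4 belongs to the cyclophilins, enzymes that turn proline bonds.

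Total expected counts were 25844821 to 31848667 in the ZT16 knockdown libraries and 36885481 to 37676778 in the ZT8 ones. Ribosomal RNA took 8.95% to 9.73% of the counts at ZT16, against 5.75%, 7.09% and 2.59% in knockdown ZT8 replicates 1, 2 and 3. In control replicates 1, 2 and 3 it took 8.06%, 7.03% and 6.40% at ZT16, against 5.90%, 2.92% and 3.27% at ZT8. The low shares at ZT8 were those of knockdown replicate 3 and control replicates 2 and 3, so they fell unevenly on the genotypes. The library names in the labels follow a different pattern at each time, so time of day cannot be told apart from a difference in preparation between the ZT16 and the ZT8 libraries. Knockdown ZT8 replicate 3 stood apart from the other 2 of its group, with a chi-square per gene of 158 and 172 against them, where replicates 1 and 2 gave 19.2 against each other. It had 123 genes more than 2-fold above or below all 5 other knockdown libraries, against 29 to 78 such genes in each of those. Among the control libraries, ZT16 replicate 1 held 2551 CPM of gut and 669 CPM of ovary markers, against 97.9 to 122.8 CPM and 2.75 to 13.8 CPM in the other 2 of its group, and ZT8 replicate 1 had a chi-square per gene of 121.5 and 112.1 against its group, where the other 2 gave 5.59 against each other. The comparison with control heads is given without these libraries too. The opsin gene ninaE of the outer photoreceptors, which defines head tissue here, had 28550.0, 26930.0 and 29140.0 CPM at ZT16, against 29300.0, 29200.0 and 31480.0 CPM at ZT8 and was high in all 6 libraries (log2 fold change -0.089 ± 0.078, adjusted p = 0.457). Markers of the gut (75.0 to 95.0 CPM summed over 29 genes at ZT16, 99.0 to 254.8 CPM at ZT8) and of the ovary (2.18 to 2.79 CPM over 17 genes at ZT16, 2.95 to 4.09 CPM at ZT8) were low in the knockdown libraries.

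The knockdown target itself was not called with time. CG5808 (chromosome 3R, 24814903 to 24817007 on dm6) had 4.46, 4.08 and 3.71 CPM at ZT16, against 4.34, 2.91 and 4.49 CPM at ZT8, and the groups overlapped (log2 fold change 0.06 ± 0.16, adjusted p = 0.83). In control heads it had 6.17, 5.86 and 5.16 CPM at ZT16, against 4.91, 4.81 and 4.93 CPM at ZT8, so every knockdown library lay below every control library. Its span overlaps CG34150 and asRNA:CR46096, and reads of the hairpin cannot be told from those of the gene. Dcr-2, which every group carries as a transgene, had 2440.0, 2668 and 2693 CPM at ZT16, against 2439, 2251 and 2124 CPM at ZT8, and its change did not pass the test (log2 fold change 0.20 ± 0.087, adjusted p = 0.128). In the following, a gene is said to have risen or fallen where edgeR's quasi-likelihood test gave an adjusted p under 0.05 over all genes (Benjamini-Hochberg), changes are log2 fold changes of ZT16 over ZT8 ± standard error, and levels are CPM (counts scaled to a common library total with TMM factors) and are given for each library.

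Of 10717 genes tested, 1268 (11.8%) rose at ZT16 and 1220 (11.4%) fell, together 23.2%. Most changes were small. At least 2-fold were 231 changes (2.16%), 99 rises (0.924%) and 132 falls (1.23%). In 4737 genes (44.2%) the 3 ZT16 libraries did not overlap the 3 ZT8 libraries. The split between rises and falls depended on the scale, since on log2(TPM + 0.1) 654 genes rose and 1294 fell, and the median of all genes was -0.07 there against -0.013 here. Leaving out knockdown ZT16 replicate 1 left 834 rises and 738 falls, and leaving out knockdown ZT16 replicate 2 left 793 falls.

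Of the 8 core clock genes, 5 rose at ZT16 and 2 fell. The targets of CLK and CYC rose: tim 1.28 ± 0.052, per 0.95 ± 0.047, Pdp1 0.79 ± 0.069, vri 0.35 ± 0.062 and cwo 0.20 ± 0.05. Clk (-2.13 ± 0.099) and cry (-1.95 ± 0.087) fell, by more than any of these rose. The gene cyc, whose RNA is known not to cycle, did not pass the test.

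The gene timeless, tim (chromosome 2L, 3493986 to 3508119), encodes the partner of PER. It had 1604, 1562 and 1622 CPM at ZT16, against 675, 646 and 657 CPM at ZT8, a change of 1.28 ± 0.052, adjusted p = 1.84e-07. The ZT16 libraries lay close together, far above the ZT8 libraries. Its partner period, per (chromosome X, 2685580 to 2692780), had 235, 227 and 239.6 CPM at ZT16, against 126, 118 and 119 CPM at ZT8 (log2 fold change 0.95 ± 0.047, adjusted p = 2.52e-07). The same order held for per without overlap, and reads of dyw, which overlaps per, may be among its counts, as the strand setting is not given in the sources used here.

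The second loop showed a large and a small rise. Pdp1, which encodes an activator of Clk, had 942, 869.7 and 917 CPM at ZT16, against 499, 550.4 and 524 CPM at ZT8 (log2 fold change 0.79 ± 0.069, adjusted p = 1.32e-05), with every ZT16 library well above the ZT8 ones. The repressor gene vri had 399, 383 and 397 CPM at ZT16, against 287, 309 and 326 CPM at ZT8 (log2 fold change 0.35 ± 0.062, adjusted p = 0.00197), while knockdown ZT8 replicate 3 came nearest to the ZT16 libraries. The repressor gene cwo had 138, 152 and 146 CPM at ZT16, against 122, 129.8 and 128 CPM at ZT8 (log2 fold change 0.20 ± 0.05, adjusted p = 0.0139). The rise of cwo was no longer called without knockdown ZT16 replicate 2 (adjusted p = 0.0666), without knockdown ZT8 replicate 1 (0.058), and on TPM plus 0.1 (0.128) or plus 1 (0.126).

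The activator gene Clk (chromosome 3L, 7763233 to 7775603) had 8.0, 8.84 and 9.45 CPM at ZT16, against 38.6, 40.6 and 36.1 CPM at ZT8 (log2 fold change -2.13 ± 0.099, adjusted p = 1.84e-07). All ZT16 libraries were far below all ZT8 libraries. Its partner cyc had 35.7, 35.3 and 33.2 CPM at ZT16, against 33.03, 35.8 and 31.9 CPM at ZT8, with overlapping groups (log2 fold change 0.049 ± 0.068, adjusted p = 0.659). The photoreceptor gene cry (chromosome 3R, 19212154 to 19215442) had 69.9, 68.02 and 67.7 CPM at ZT16, against 282, 263 and 248 CPM at ZT8 (log2 fold change -1.95 ± 0.087, adjusted p = 1.84e-07). No library of one time came near the other. Clk overlaps CG32371, and cry overlaps vib and lncRNA:CR46393.

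**Figure D1:**
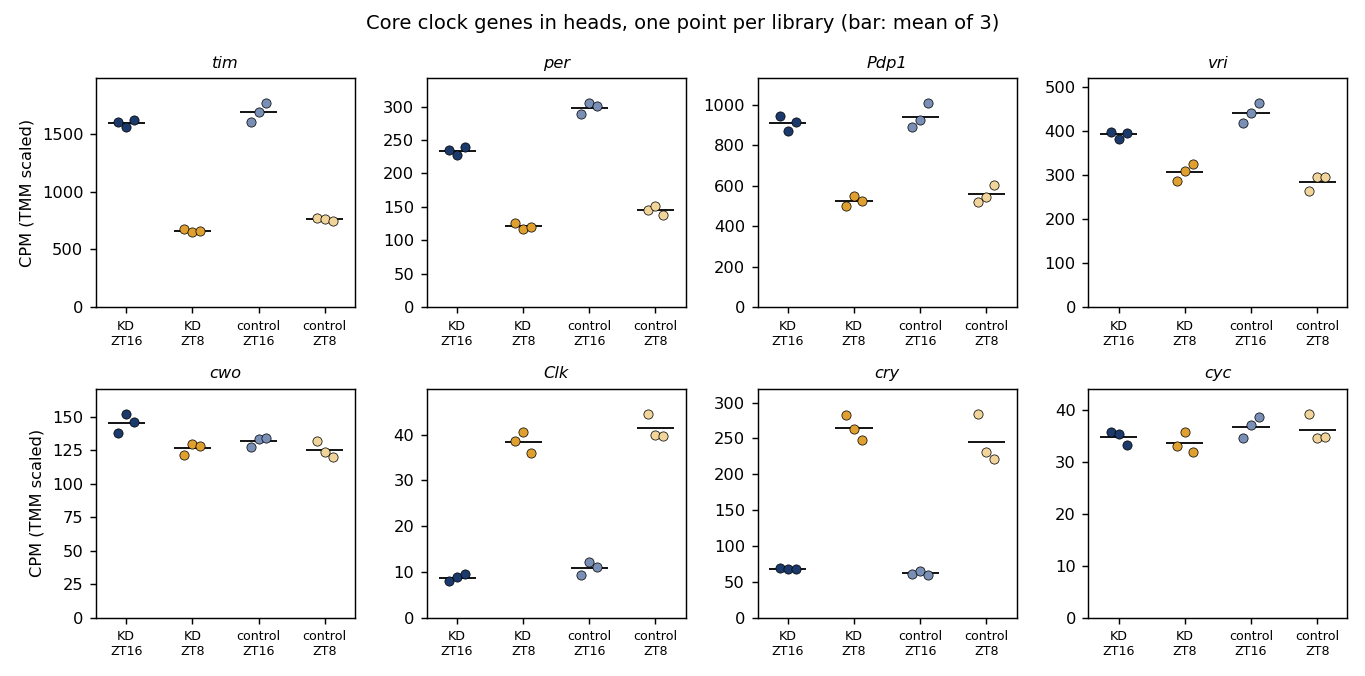
Level of the 8 core clock genes in CPM (vertical axes, from 0) in each library, in the order knockdown ZT16, knockdown ZT8, control ZT16 and control ZT8; points are libraries and bars the means of 3. In knockdown heads tim, per, Pdp1, vri and cwo lie higher at ZT16 than at ZT8, Clk and cry lie lower, and cyc overlaps.

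The deposited table lists 39 transcripts of these 8 genes, and 33 could be tested. Of these, 16 rose and 4 fell at an adjusted p under 0.05, against 11.7% of 23013 transcripts called in all (5.91% higher, 5.79% lower). RSEM shares reads among overlapping transcripts, so the value of a single one is an estimate. All 7 tested tim transcripts rose, but by different amounts: variant S by 1.19 ± 0.068, variant L by 1.44 ± 0.097 and variant M, the longest of those tested, by 0.67 ± 0.098. Variant M had 212, 196 and 225 CPM at ZT16, against 153, 125 and 119 CPM at ZT8, a smaller rise than that of the gene as a whole. Its adjusted p was 0.0806 with the replicate number as a block in the 6 knockdown libraries alone, a fit that calls few transcripts (174). That fit also ended the calls of tim variants R (0.108) and O (0.0682), and in all those of 11 of the 20 called transcripts of the core clock genes, with an adjusted p of up to 0.188. Variants B and T have the same length and carry the same values in every library.

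The small rise of vri hid transcripts that went opposite ways. Variant F fell (log2 fold change -1.44 ± 0.12, adjusted p = 0.000124), with 56.3, 44.6 and 40.7 CPM at ZT16, against 120.3, 122 and 142 CPM at ZT8. Variant D had 179.5, 193 and 158 CPM at ZT16, against 129, 115 and 129 CPM at ZT8 and rose (log2 fold change 0.50 ± 0.11, adjusted p = 0.0165). Variant A had 152, 136 and 187 CPM at ZT16, against 29.9, 64.04 and 44.1 CPM at ZT8 (log2 fold change 1.79 ± 0.44, adjusted p = 0.0272), the largest difference of the 3. The call of variant D ended without knockdown ZT16 replicate 1 (0.057) or 2 (0.0626) or knockdown ZT8 replicate 2 (0.062), and that of variant A without any one of knockdown ZT16 replicates 1 (0.0674), 2 (0.0543) and 3 (0.0802) and knockdown ZT8 replicates 1 (0.0925) and 3 (0.0793). With the replicate block in the 6 libraries alone the adjusted p was 0.0645 for variant F, 0.124 for variant D and 0.0858 for variant A.

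In Pdp1 the rise lay in a few transcripts. Variants D and J had 1.47 ± 0.097 and 1.36 ± 0.076, well above the change of the gene as a whole. Variant K had 326, 281 and 300.1 CPM at ZT16, against 222, 256 and 243 CPM at ZT8 and a small rise (log2 fold change 0.33 ± 0.085, adjusted p = 0.0334) that ended without knockdown ZT16 replicate 1 (0.124) or 3 (0.0834) or knockdown ZT8 replicate 1 (0.113) or 3 (0.0736), without control ZT16 replicate 2 (0.0504) or control ZT8 replicate 2 (0.0529), and on TPM plus 0.1 (0.145). It also ended in the 6 knockdown libraries alone, without (0.0561) and with the replicate block (0.185). Variant N did not pass the test (log2 fold change -0.14 ± 0.14, adjusted p = 0.603). Of Clk, variant A had 2.84, 2.84 and 1.93 CPM at ZT16, against 14.97, 17.4 and 17.6 CPM at ZT8 (log2 fold change -2.71 ± 0.17, adjusted p = 2.34e-05), while variant H had 4.28, 4.24 and 7.13 CPM at ZT16, against 18.3, 19.4 and 15.1 CPM at ZT8 (log2 fold change -1.75 ± 0.22, adjusted p = 0.00101). Both stood lower in every ZT16 library. For variant H the adjusted p was 0.0854 with the replicate block in the 6 libraries alone. Of per, variant B rose by 1.34 ± 0.18 and variant A by 0.83 ± 0.061. The adjusted p of variant B was 0.0566 with that block.

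Among 24 genes for kinases, phosphatases and other regulators of clock proteins, 2 rose and 5 fell. Usp8, whose product removes ubiquitin and is known to act on CLK, had 115, 115 and 113 CPM at ZT16, against 185, 173 and 178 CPM at ZT8 (log2 fold change -0.64 ± 0.045, adjusted p = 2.78e-06). The RNA-binding protein gene lark fell (-0.52 ± 0.054, adjusted p = 5.63e-05), and the Jun kinase gene bsk rose (0.29 ± 0.054, adjusted p = 0.00248). The count of falls was 3 without knockdown ZT16 replicate 1 or 2 or knockdown ZT8 replicate 2. Of 14 clock output genes 2 rose and 2 fell. The glycosyltransferase gene Ugt35B1 had 21.4, 19.9 and 19.6 CPM at ZT16, against 42.7, 43.3 and 41.6 CPM at ZT8 (log2 fold change -1.07 ± 0.074, adjusted p = 2.78e-06), lower in all ZT16 libraries. The ecdysteroid hydroxylase gene Cyp18a1 had 47.1, 51.1 and 46.6 CPM at ZT16, against 24.2, 29.6 and 23.6 CPM at ZT8 (log2 fold change 0.90 ± 0.095, adjusted p = 6.22e-05), so it went the other way.

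The largest changes were ranked among genes with at least 5 CPM in the higher group, no overlap and a call with any 1 knockdown library left out, which 677 rises and 560 falls passed. The 15 largest rises were led by 2 RNAs. Achl (Achilles), a neuronal gene known to cycle in fly heads, had 166, 157 and 170.1 CPM at ZT16, against 12.6, 6.95 and 6.86 CPM at ZT8 (log2 fold change 4.22 ± 0.20, adjusted p = 1.33e-06). All ZT16 libraries were far above all ZT8 libraries, of which replicate 1 was the highest. The mitochondrial small-subunit rRNA, srRNA, had 52.9, 56.99 and 70.9 CPM at ZT16, against 2.92, 5.21 and 0.496 CPM at ZT8 (log2 fold change 4.40 ± 0.62, adjusted p = 0.00138). The libraries were selected for poly(A), nuclear rRNA also took a larger share at ZT16, and the part of this share in the rise of srRNA was not tested; the adjusted p of srRNA was 0.0967 with the replicate block in the 6 knockdown libraries alone.

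Among the next largest rises, CG13026 had 16.4, 15.8 and 12.9 CPM at ZT16, against 3.21, 2.88 and 1.83 CPM at ZT8 (log2 fold change 2.51 ± 0.19, adjusted p = 5.45e-06). CG7203 had 251, 226 and 159.6 CPM at ZT16, against 64.3, 39.9 and 25.8 CPM at ZT8 (log2 fold change 2.29 ± 0.45, adjusted p = 0.0073), while CG4000 had 364, 348 and 252 CPM at ZT16, against 92.1, 69.7 and 38.5 CPM at ZT8 (log2 fold change 2.27 ± 0.30, adjusted p = 0.000827). Both are abundant, and in both the libraries of one time spread widely without meeting those of the other. Others were CG17267 (3.43 ± 0.56), CG6034 (3.06 ± 0.52), CG40198 (2.45 ± 0.31), CG17777 (2.22 ± 0.19), CG15080 (2.21 ± 0.17), CG34134 (2.15 ± 0.15), cyr (2.11 ± 0.26) and CG42269 (1.99 ± 0.18). Of these, CG6034 had an adjusted p of 0.0686 with the replicate block in the 6 libraries alone. The neuropeptide-like precursor gene Nplp3 had 731, 718 and 643 CPM at ZT16, against 299, 262 and 268 CPM at ZT8 (log2 fold change 1.34 ± 0.18, adjusted p = 0.000616), higher in every ZT16 library; it is one of the most abundant genes changed at least 2-fold. CG14153 (1.68 ± 0.087) and the cuticle protein gene Ccp84Ag (1.60 ± 0.36) were the last of the 15.

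The largest of the 15 falls was that of the stress gene TotM, a Turandot gene whose product is secreted, at 15.96, 9.45 and 11.9 CPM at ZT16, against 145, 149.8 and 33.03 CPM at ZT8 (log2 fold change -3.14 ± 0.59, adjusted p = 0.00571). Knockdown ZT8 replicate 3 lay far below replicates 1 and 2 of its group but above the ZT16 libraries, and the adjusted p was 0.137 with the replicate block in the 6 libraries alone. The gene phu had 16.04, 18.8 and 15.5 CPM at ZT16, against 97.2, 72.8 and 160.2 CPM at ZT8 (log2 fold change -2.71 ± 0.35, adjusted p = 0.000746; 0.0561 with that block). Behind Clk and cry, the nuclear receptor gene Hr38 (-1.58 ± 0.17) and the bHLH gene Sidpn (-1.53 ± 0.071) were among the largest falls. Sidpn had 31.1, 26 and 29.8 CPM at ZT16, against 83.9, 84.7 and 83.05 CPM at ZT8, with tight groups far apart (log2 fold change -1.53 ± 0.071, adjusted p = 1.84e-07). Others were CG31664 (-1.97 ± 0.12), CG14329 (-1.65 ± 0.20), CG16798 (-1.55 ± 0.15), the lipase family gene sxe2 (-1.51 ± 0.27), and Adhr (-2.01 ± 0.23), which overlaps Adh and osp. Hpd (-1.65 ± 0.085) and hgo (-1.48 ± 0.12), both for enzymes of tyrosine breakdown, pirk and PGRP-SD complete the 15. Among the most abundant genes that changed at least 2-fold, CG6910 fell too (-1.15 ± 0.17, adjusted p = 0.00104).

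**Figure D2:**
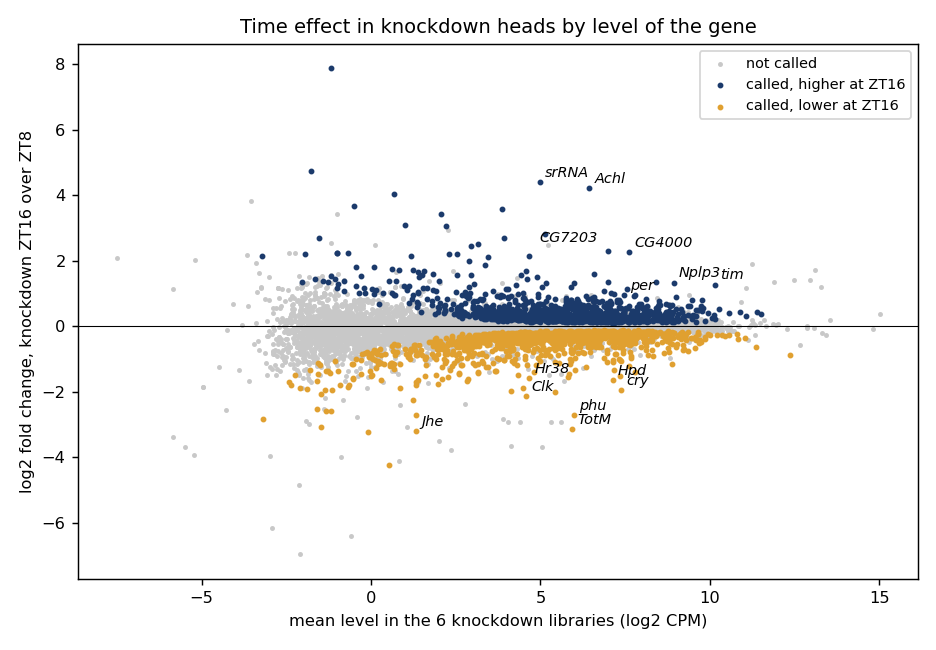
Log2 fold change of knockdown ZT16 over knockdown ZT8 (vertical axis) against the mean level in the 6 knockdown libraries (horizontal axis, log2 CPM), one point per tested gene; blue points rose, orange points fell and grey points were not called. Called changes are mostly small, while Achl, srRNA, Clk, cry, TotM and phu lie far from 0.

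The 8 smallest adjusted p-values belonged to tim, per, Clk, cry, Sidpn and 3 other genes. CG6870 had 294, 307 and 281 CPM at ZT16, against 148, 152 and 150.5 CPM at ZT8 (log2 fold change 0.97 ± 0.042, adjusted p = 1.84e-07). CG1943 had 202, 188 and 181 CPM at ZT16, against 100.3, 96.1 and 92.05 CPM at ZT8 (log2 fold change 0.99 ± 0.048, adjusted p = 2.44e-07). The glycosyltransferase gene Ugt302C1 had 43.8, 44.9 and 43.7 CPM at ZT16, against 77.1, 76.3 and 76.8 CPM at ZT8 (log2 fold change -0.80 ± 0.04, adjusted p = 2.52e-07). In each of the 3 the libraries of a time lay close together.

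Activity-regulated genes, which neurons switch on when they fire, fell together at ZT16. Of 13 tested members 0 rose and 11 fell (median -0.50, against -0.013 over all genes), and 9 to 11 fell with any 1 library left out. Hr38, a marker of recent firing in insect neurons, had 10.6, 11.98 and 15.2 CPM at ZT16, against 33.7, 40.6 and 38.9 CPM at ZT8 (log2 fold change -1.58 ± 0.17, adjusted p = 0.000157). Arc1, whose protein forms capsids that carry RNA between cells, had 96, 103 and 126 CPM at ZT16, against 212, 228 and 238 CPM at ZT8 (log2 fold change -1.06 ± 0.095, adjusted p = 1.91e-05). All ZT16 libraries were below all ZT8 libraries in both genes. CG46385 (-0.88 ± 0.06), CG14186 (-1.08 ± 0.083) and the kinase gene meng (-0.50 ± 0.05) fell as well.

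Other neuronal genes moved in both directions, where 11.8% of all tested genes rose and 11.4% fell. Of 20 neuron markers 5 rose and 3 fell (median 0.08), and the summed level was 10410.0, 9363 and 9913 CPM at ZT16, against 9447, 9671 and 9201 CPM at ZT8. The SNARE gene Snap25 rose (0.55 ± 0.066, adjusted p = 0.000162), as did the sodium pump subunit gene nrv3 (0.52 ± 0.091, adjusted p = 0.0018), and the active zone gene Rim fell (-0.31 ± 0.063, adjusted p = 0.00496). Only 2 rose without knockdown ZT16 replicate 1 or knockdown ZT8 replicate 3, and 3 without knockdown ZT16 replicate 3. Of 27 ion channel genes 2 rose and 3 fell, no more than the shares of all genes. Among them the potassium channel gene Irk2 rose (0.37 ± 0.059) and KCNQ fell (-0.25 ± 0.045). Of 36 neurotransmitter receptor genes 9 rose and 2 fell, with 5 rises left without knockdown ZT16 replicate 1 or 3. The serotonin receptor gene 5-HT2A (0.29 ± 0.047) and the nicotinic receptor gene nAChRbeta2 (0.39 ± 0.069) rose, and the GABA receptor gene GABA-B-R3 fell (-0.35 ± 0.062).

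Neuropeptide genes fell more often than they rose, with 2 rises and 7 falls among 30 (median -0.15). Pdf, the peptide of the ventral clock neurons, had 50.8, 49.7 and 52.6 CPM at ZT16, against 36.4, 37.8 and 41.3 CPM at ZT8 and rose (log2 fold change 0.41 ± 0.06, adjusted p = 0.000637). All ZT16 libraries lay above all ZT8 libraries. AstC, the allatostatin C precursor, fell (-0.44 ± 0.06, adjusted p = 0.000412), as did Trissin (-0.51 ± 0.078, adjusted p = 0.00076). Of 16 sleep regulators 4 rose and 2 fell. The dopamine transporter gene DAT rose (0.38 ± 0.065, adjusted p = 0.00178) and the kinase gene Sik3 fell (-0.27 ± 0.047, adjusted p = 0.00197).

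Among glia markers only rises were called. Of 15 tested members 8 rose and 0 fell (median 0.33), and 8 to 10 rose with any 1 library left out. The GABA transporter gene Gat of astrocytes had 281, 258 and 245 CPM at ZT16, against 109.6, 108 and 136 CPM at ZT8 (log2 fold change 1.15 ± 0.099, adjusted p = 1.66e-05). Every ZT16 library lay well above every ZT8 library. The astrocyte gene alrm (0.74 ± 0.084), the blood-brain barrier transporter gene Mdr65 (0.60 ± 0.062) and the gap junction gene Inx2 (0.54 ± 0.052) rose too. The summed level of the list was 3720.0, 3549 and 3425 CPM at ZT16, against 2933, 2699 and 3087 CPM at ZT8, without overlap. In bulk RNA a larger share of cells of a type and more RNA per cell cannot be told apart.

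In the eye, 1 of 7 opsin genes rose and 1 fell. Rh6, the green-sensitive opsin of inner photoreceptors, fell (-0.29 ± 0.063, adjusted p = 0.00662). Rh2 of the ocelli rose (0.37 ± 0.096, adjusted p = 0.0179), but not without knockdown ZT16 replicate 1 (0.0548) or 3 (0.063), without knockdown ZT8 replicate 1 (0.0635) or 2 (0.0783), or on TPM plus 0.1 (0.101). Of 28 phototransduction genes 8 rose and 4 fell. The light-gated channel genes went opposite ways: trpl had 2142, 1998 and 2085 CPM at ZT16, against 3445, 3387 and 2733 CPM at ZT8 and fell (log2 fold change -0.62 ± 0.098, adjusted p = 0.000982), while trp had 3424, 3129 and 3272 CPM at ZT16, against 2635, 2532 and 2328 CPM at ZT8 and rose (log2 fold change 0.39 ± 0.065, adjusted p = 0.00139). Neither gene's groups overlapped. The lens protein gene retinin had 1223, 1150.0 and 961 CPM at ZT16, against 672, 619.8 and 599.5 CPM at ZT8 (log2 fold change 0.82 ± 0.09, adjusted p = 8.67e-05). Its groups did not overlap. The gene pinta, whose product binds retinol, rose (0.53 ± 0.065, adjusted p = 0.000181).

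Of 16 histamine and eye pigment genes 4 rose and 1 fell, with 1 rise left without knockdown ZT16 replicate 3, 2 without knockdown ZT8 replicate 2, and 2 with the replicate block in the 12 libraries. The gene t (tan), whose enzyme frees histamine for reuse in photoreceptors, had 360.4, 357 and 348 CPM at ZT16, against 221, 213 and 162 CPM at ZT8 (log2 fold change 0.84 ± 0.095, adjusted p = 0.000112), higher in every ZT16 library. The pigment transporter gene w (white) had 418, 432 and 496 CPM at ZT16, against 665, 686 and 873 CPM at ZT8 (log2 fold change -0.73 ± 0.10, adjusted p = 0.000507), lower in every ZT16 library; w is also the usual marker on fly transgenes.

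Among the large chaperone genes only falls were called. Of 16 Hsp70 and Hsp90 chaperone genes 0 rose and 8 fell (median -0.40), and 6 to 9 fell with any 1 library left out. Hsp83, the fly Hsp90, had 601, 579 and 567 CPM at ZT16, against 944, 899 and 902 CPM at ZT8 (log2 fold change -0.65 ± 0.082, adjusted p = 0.000209), while Hsc70-4, the main constitutive Hsp70, had 1826, 1863 and 1836 CPM at ZT16, against 2405, 2427 and 2255 CPM at ZT8 (log2 fold change -0.36 ± 0.069, adjusted p = 0.00331). Both were lower in every ZT16 library. The cochaperone genes DnaJ-1 (-0.22 ± 0.037) and stv (-0.24 ± 0.049) fell by less. Of 7 small heat shock genes 1 rose and 3 fell: l(2)efl -0.70 ± 0.10, Hsp22 -1.17 ± 0.21 and Hsp23 -0.57 ± 0.13.

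Of 18 genes of folding and stress in the endoplasmic reticulum 0 rose and 6 fell, among them the stress transcription factor gene Xbp1 (-0.26 ± 0.04) and the BiP gene Hsc70-3 (-0.45 ± 0.093). The count was 2 without knockdown ZT16 replicate 1 or 3 and 3 without knockdown ZT16 replicate 2 or knockdown ZT8 replicate 1. Of 15 antioxidant genes 1 rose and 5 fell, and 9 fell without control ZT8 replicate 1. The one that rose was Gclc, the catalytic subunit of the enzyme that limits glutathione synthesis, at 172, 166 and 168 CPM at ZT16, against 94.8, 98.4 and 101 CPM at ZT8 (log2 fold change 0.78 ± 0.043, adjusted p = 6.01e-07). The Nrf2 gene cnc (-0.33 ± 0.047) and the thioredoxin gene Trx-2 (-0.30 ± 0.061) fell.

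Glutathione S-transferase genes, whose enzymes use glutathione, fell in the same samples. Of 31 tested members 1 rose and 17 fell (median -0.52), and 13 to 19 fell with any 1 library left out. GstE1 had 26.3, 27.7 and 24.2 CPM at ZT16, against 45.7, 40.97 and 48.4 CPM at ZT8 (log2 fold change -0.79 ± 0.077, adjusted p = 3.34e-05), GstE6 had 33.9, 31.97 and 30.7 CPM at ZT16, against 51.5, 51.3 and 50.9 CPM at ZT8 (log2 fold change -0.67 ± 0.058, adjusted p = 1.19e-05), while GstD1 had 176, 189 and 181 CPM at ZT16, against 271, 258 and 251 CPM at ZT8 (log2 fold change -0.52 ± 0.067, adjusted p = 0.000275). None of these groups overlapped. GstD10 (-1.89 ± 0.22) and GstO3 (-0.51 ± 0.058) fell as well, and many of these genes are close copies whose reads can be shared.

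Other detoxification families were mixed. Of 74 cytochrome P450 genes 6 rose and 16 fell (median -0.11), but 6 to 9 fell without knockdown ZT16 replicate 1 (6), 2 (7) or 3 (6) or knockdown ZT8 replicate 1 (8) or 2 (9), and 12 rose with the replicate block in the 6 libraries alone. Cyp6d5 rose (0.68 ± 0.077, adjusted p = 0.000102), while Cyp4p1 (-0.47 ± 0.06) and Cyp317a1 (-0.83 ± 0.12) fell. Of 22 glycosyltransferase genes 3 rose and 6 fell, with Ugt36D1 among the rises (0.65 ± 0.066) and Ugt49C1 among the falls (-0.61 ± 0.049).

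Immune recognition and signalling genes fell without a rise, 12 of 27 (median -0.17), and 7 without knockdown ZT16 replicate 1 or 2. The NF-kappaB genes dl (-0.46 ± 0.072) and Rel (-0.33 ± 0.071) fell. PGRP-LB, an enzyme that breaks down peptidoglycan, had 4.82, 4.84 and 4.69 CPM at ZT16, against 9.67, 10.4 and 18.6 CPM at ZT8 (log2 fold change -1.43 ± 0.23, adjusted p = 0.00164). The Imd inhibitor gene pirk had 3.54, 3.7 and 3.48 CPM at ZT16, against 6.29, 8.06 and 18.3 CPM at ZT8 (log2 fold change -1.61 ± 0.37, adjusted p = 0.0121), while the recognition gene PGRP-SD had 2.94, 3.7 and 2.92 CPM at ZT16, against 6.94, 5.23 and 14.2 CPM at ZT8 (log2 fold change -1.47 ± 0.34, adjusted p = 0.0128). In these 3 genes knockdown ZT8 replicate 3 was the highest library by far. With the replicate block in the 6 libraries alone the adjusted p was 0.0919 for pirk and 0.121 for PGRP-SD. Both calls also ended in the 6 libraries without a block (0.0779 for pirk and 0.0714 for PGRP-SD) and with limma-voom (0.0661 and 0.0548).

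Antimicrobial peptide genes, the targets of these pathways, were not called by edgeR. Of 16 tested 0 rose and 0 fell at an adjusted p under 0.05, with a median of -2.91, and 8 had an unadjusted p under 0.05. DESeq2 called 5 of the 16 and limma-voom 0. DptA (diptericin) had 1.97, 2.27 and 9.94 CPM at ZT16, against 4.42, 4.82 and 176 CPM at ZT8, and AttC (attacin) had 8.96, 7.63 and 17.6 CPM at ZT16, against 23.2, 18.5 and 217 CPM at ZT8 (log2 fold change -2.91 ± 1.03, adjusted p = 0.0756). Among the knockdown libraries a single one, ZT8 replicate 3, held the high values, and without it the median was -0.59. The summed level of the 18 genes was 172, 182 and 256 CPM at ZT16, against 259.5, 229 and 1144 CPM at ZT8. In control heads it was 919.6, 308.2 and 312.2 CPM at ZT16, against 1277, 1161 and 1188 CPM at ZT8. Knockdown ZT8 replicate 3 was thus near the control ZT8 libraries, and knockdown ZT8 replicates 1 and 2 were far below them.

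Of 5 tested Turandot genes 0 rose and 2 fell, and 4 fell without knockdown ZT8 replicate 3. TotA had 307, 305 and 299 CPM at ZT16, against 794, 789.6 and 214 CPM at ZT8 (log2 fold change -0.98 ± 0.41, adjusted p = 0.124), while TotC had 125, 125 and 117 CPM at ZT16, against 398, 456 and 107 CPM at ZT8 (log2 fold change -1.39 ± 0.43, adjusted p = 0.0496). Replicates 1 and 2 of knockdown ZT8 were high and replicate 3 was below the ZT16 libraries, the reverse of its place among the antimicrobial genes. The summed level of the list was 1361, 1408 and 378.8 CPM in knockdown ZT8 replicates 1, 2 and 3. In control ZT8 it was 379.2, 296.4 and 313.3 CPM, so here too replicate 3 was the one near the control libraries. The call of TotC ended in 11 of the 12 fits that left out 1 library, with an adjusted p of up to 0.153, with limma-voom (0.111), in the 6 knockdown libraries alone (0.179) and with either replicate block (0.0791 in the 12 libraries and 0.349 in the 6). Of 12 Bomanin genes 2 rose and 4 fell, with BomT3 among the rises (0.60 ± 0.12) and BomT1 among the falls (-0.99 ± 0.23), and 1 or 2 fell without any one of knockdown ZT16 replicates 1 to 3 and knockdown ZT8 replicates 1 and 3.

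Hemocyte markers had a median of 0.81, with 3 rises and 0 falls among 9. PPO1, a prophenoloxidase of crystal cells, had 137, 163 and 134 CPM at ZT16, against 30.6, 21.2 and 92.2 CPM at ZT8 (log2 fold change 1.59 ± 0.46, adjusted p = 0.0383), PPO2 was at 1.36 ± 0.41, and the phagocytic receptor gene eater was at 0.81 ± 0.23. Knockdown ZT8 replicate 3 stood between the others of its group and the ZT16 libraries in these 3 genes, and 5 members rose without it. These calls ended in 5 to 11 of the 12 fits with 1 library left out, with adjusted p up to 0.101 for eater, 0.116 for PPO1 and 0.126 for PPO2, and in the 6 knockdown libraries alone (0.128 for eater, 0.157 for PPO1 and 0.167 for PPO2), also with the replicate block there (0.156, 0.233 and 0.228). The call of PPO2 ended with the block in the 12 libraries too (0.0503).

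Called changes of cytoplasmic and of mitochondrial ribosomal protein genes ran mostly in opposite directions. Cytoplasmic ribosomal protein genes fell in 40 of 86 and rose in 0 (median -0.17), with 26 falls without knockdown ZT16 replicate 1. RpL22 had 465, 475 and 446 CPM at ZT16, against 786, 768 and 695 CPM at ZT8 (log2 fold change -0.70 ± 0.058, adjusted p = 9.22e-06), while RpS16 (-0.66 ± 0.056), RpS9 (-0.57 ± 0.061) and RpL34b (-0.51 ± 0.054) fell by similar amounts. Mitochondrial ribosomal protein genes rose in 27 and fell in 3 of 73 (median 0.16), with 20 to 30 rises with any 1 library left out. The gene mRpL24 had 41.4, 43.6 and 40.5 CPM at ZT16, against 30.8, 29.1 and 28.1 CPM at ZT8 (log2 fold change 0.51 ± 0.054, adjusted p = 6.33e-05), higher in every ZT16 library, and mRpS5 rose too (0.45 ± 0.064).

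Translation factor genes rose in 12 and fell in 0 of 44, such as eIF1A (0.39 ± 0.041) and eIF4H1 (0.36 ± 0.052). The count was 6 without knockdown ZT16 replicate 1 or 2 and 7 without knockdown ZT8 replicate 2, and the median was 0.056 here and -0.006 on TPM. Proteasome subunit genes rose in 1 and fell in 6 of 32, including Prosbeta3 (-0.37 ± 0.069). The count of falls was 2 without knockdown ZT16 replicate 1 or 3 or knockdown ZT8 replicate 1, and 3 without knockdown ZT8 replicate 3.

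A minority of respiratory chain genes rose, where 11.8% of all tested genes did. The median change was 0.084 in complex I and 0.1 in complexes II to V, but -0.007 and 0.005 without knockdown ZT8 replicate 3. Of 33 complex I genes 6 rose and 0 fell, such as ND-MNLL (0.29 ± 0.044) and ND-15 (0.39 ± 0.064), but only 2 or 3 rose when any library other than knockdown ZT8 replicate 1, control ZT16 replicate 1 or control ZT8 replicate 1 was left out. Of 37 genes of complexes II to V 7 rose and 1 fell. Cytochrome c, Cyt-c-p, had 415, 455 and 424 CPM at ZT16, against 301, 290.1 and 258 CPM at ZT8 (log2 fold change 0.61 ± 0.075, adjusted p = 0.000195), while the ATP synthase subunit gene ATPsynbeta had 2146, 2254 and 2188 CPM at ZT16, against 1659, 1669 and 1488 CPM at ZT8 (log2 fold change 0.45 ± 0.07, adjusted p = 0.000886). Both were higher in every ZT16 library. The count of rises in complexes II to V was 4 without any one of knockdown ZT16 replicates 1 to 3, knockdown ZT8 replicates 2 and 3, control ZT16 replicates 2 and 3 and control ZT8 replicate 2, and without knockdown ZT8 replicate 3 the falls were 4.

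**Figure D3:**
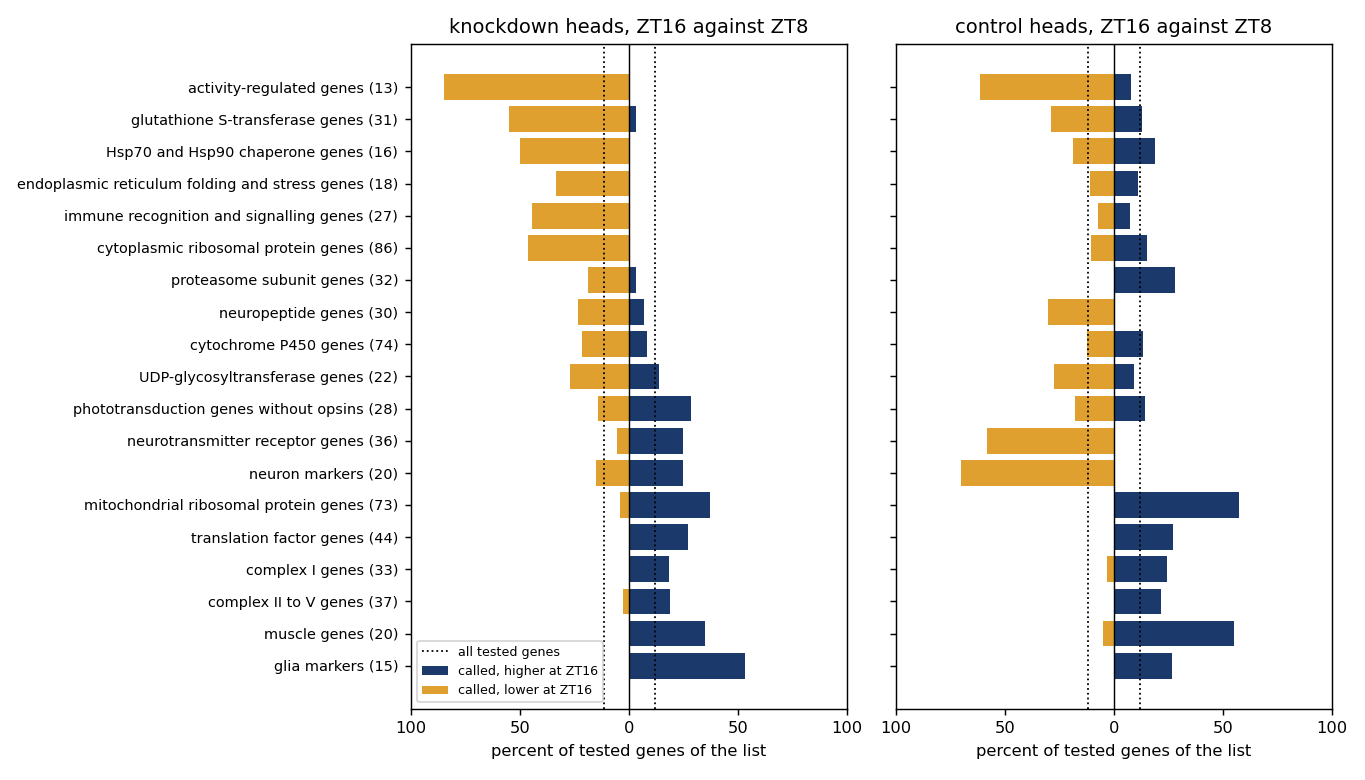
Share of the tested genes of each list (number in parentheses) that rose (blue, right) or fell (orange, left) at ZT16, in knockdown heads (left panel) and control heads (right panel); dotted lines mark the shares among all tested genes. In knockdown heads the activity-regulated, glutathione S-transferase, chaperone, immune and cytoplasmic ribosomal lists fall beyond the dotted line, and the glia and mitochondrial ribosomal lists rise beyond it.

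Few genes of energy stores and fuels were called. Of 16 glycolysis genes 0 rose and 1 fell, Pgi (-0.37 ± 0.11, adjusted p = 0.0336), a call that ended without any one of knockdown ZT16 replicates 1 (0.0945), 2 (0.0727) and 3 (0.0928) and knockdown ZT8 replicates 1 (0.0907) and 3 (0.0847). Of 22 sugar storage and transport genes 1 rose, the trehalose transporter gene Tret1-1 (0.35 ± 0.077, adjusted p = 0.0071). Of 24 lipid genes 2 rose and 1 fell: the malic enzyme gene Men-b rose (0.41 ± 0.08) and the reductase gene FarO fell (-1.01 ± 0.19). The insulin-like peptide gene Ilp6 of the fat body rose (0.55 ± 0.11, adjusted p = 0.0045).

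Muscle genes rose in 7 and fell in 0 of 20 (median 0.23), with 1 rise left without knockdown ZT16 replicate 2, 2 without knockdown ZT16 replicate 3, 6 rises and 4 falls without knockdown ZT8 replicate 3, and 4 rises with the replicate block in the 6 libraries alone. The myosin light chain gene Mlc2 had 895, 983 and 966 CPM at ZT16, against 736, 757 and 532 CPM at ZT8 (log2 fold change 0.49 ± 0.11, adjusted p = 0.0104), with knockdown ZT8 replicate 3 the lowest. Of 11 fat body markers 1 rose, Hnf4 (0.25 ± 0.052).

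Hormone genes held some steep changes, but Jhe and phm had group means below the 5 CPM set for ranking the largest changes. Jhe, the enzyme that breaks down juvenile hormone, had 0.362, 0.491 and 0.591 CPM at ZT16, against 4.55, 3.82 and 5.09 CPM at ZT8 (log2 fold change -3.20 ± 0.25, adjusted p = 5.91e-06), far lower in every ZT16 library. The ecdysone synthesis gene phm had 4.42, 3.1 and 3.28 CPM at ZT16, against 1.23, 1.02 and 0.992 CPM at ZT8 (log2 fold change 1.73 ± 0.27, adjusted p = 0.000815), while the nuclear receptor gene ftz-f1 had 125, 120.2 and 126 CPM at ZT16, against 88.2, 90.3 and 89.2 CPM at ZT8 (log2 fold change 0.47 ± 0.048, adjusted p = 4.25e-05). Both were higher in every ZT16 library. In all, 4 of 22 hormone genes rose and 2 fell, where 11.8% of all tested genes rose and 11.4% fell. Of 41 tested cuticle protein genes 5 rose and 7 fell, with Cpr72Ec at 87.8, 93.5 and 97.4 CPM at ZT16, against 196, 191 and 182 CPM at ZT8 (log2 fold change -1.03 ± 0.058, adjusted p = 6.48e-07). TwdlE rose (1.54 ± 0.33). Leaving out knockdown ZT8 replicate 2 or control ZT16 replicate 2 gave 3 and 8 rises, the block in the 6 libraries alone gave 11 rises, and leaving out knockdown ZT16 replicate 1 or knockdown ZT8 replicate 3 gave 4 falls.

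Of 23 genes of RNA polymerase II, its kinases and elongation 0 rose and 3 fell. The calls of the polymerase subunit gene RpII215 (-0.17 ± 0.051) and the cyclin gene CycT (-0.14 ± 0.038) ended in 5 and 3 of the 12 fits with 1 library left out, with adjusted p up to 0.151 and 0.0818. Both calls also ended with the replicate block in the 6 knockdown libraries alone (0.0543 for RpII215 and 0.0947 for CycT), and that of RpII215 in the 6 without a block (0.0512). Of 33 splicing factor genes 3 rose and 1 fell. Of 15 cyclophilin genes 1 rose and 1 fell. The eye cyclophilin gene ninaA, which escorts opsin, had 123, 123 and 116 CPM at ZT16, against 95.04, 88.3 and 71.1 CPM at ZT8 (log2 fold change 0.51 ± 0.099, adjusted p = 0.00409). Moca-cyp had -0.20 ± 0.051, a call that ended without knockdown ZT16 replicate 1 (0.0628) or 2 (0.0717), without knockdown ZT8 replicate 1 (0.0621) or on TPM plus 0.1 (0.0895). Of 15 RNA interference genes 1 rose and 2 fell, including a fall of the microRNA dicer gene Dcr-1 (-0.23 ± 0.05, adjusted p = 0.00574). Of 14 cell death genes 3 rose and 2 fell, with the death gene skl at 5.27, 4.54 and 5.15 CPM at ZT16, against 2.62, 3.04 and 2.61 CPM at ZT8 (log2 fold change 0.85 ± 0.11, adjusted p = 0.00034). Of 25 genes of protein turnover 5 rose and 2 fell, with a rise of the ubiquitin gene Ubi-p5E (0.41 ± 0.047) and a fall of the lysosomal protease gene cathD (-0.40 ± 0.058).

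The time effect of knockdown heads was set beside that of control heads, which shares no library with it. Of the 1268 rises in knockdown heads 82.6% had the same sign in control heads, and 583 were called in both, which is 46.0% of the knockdown rises and 45.5% of the control rises. Of the 1220 falls 84.4% had the same sign, and 520 were called in both, 42.6% of the knockdown falls and 41.2% of the control falls. Of all tested genes 12.0% rose and 11.8% fell in control heads. The share of all genes with the same sign in both was not counted. Opposite calls were made for 31 knockdown rises and 20 knockdown falls. Across the 10717 genes the log2 fold changes had a Pearson r of 0.25 and a Spearman rho of 0.40, as a description, and both share the depth and library name patterns of their times. Without control ZT16 replicate 1 the Pearson r was 0.41, and 10 rises and 44 falls had opposite calls. Without control ZT8 replicate 1 it was 0.12, with 52 and 74 opposite calls. Without knockdown ZT8 replicate 3 it was 0.16, with 13 and 25.

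No core clock gene had a called difference between the time effects by edgeR, DESeq2 or limma-voom, and 1 of the 8, vri, had an unadjusted p under 0.05 by edgeR. In control heads tim changed by 1.15 ± 0.052, per by 1.04 ± 0.047, Clk by -1.92 ± 0.097 and cry by -1.99 ± 0.087. The difference of the effects, knockdown minus control, was 0.12 ± 0.072 for tim (adjusted p = 0.342), -0.09 ± 0.065 for per (0.451), -0.21 ± 0.14 for Clk (0.4) and -0.27 ± 0.088 for vri (0.1). Achl rose in control heads too (5.33 ± 0.22), and the difference missed the threshold (log2 difference -1.11 ± 0.27, adjusted p = 0.0511).

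The difference itself was called for 448 genes (4.18%), 286 higher (2.67%) and 162 lower (1.51%) in knockdown. The time effect in control heads was called for 2542 genes (23.7%). The 448 depended on single libraries. The count was 137 with the replicate block in the 12 libraries, and with 1 library left out it was 19, 292 and 73 without knockdown ZT16 replicates 1, 2 and 3, and 116 and 257 without knockdown ZT8 replicates 1 and 2. It was 269 and 24 without control ZT16 replicates 2 and 3, and 1107, 22 and 27 without control ZT8 replicates 1, 2 and 3. It was 320 without control ZT16 replicate 1, the library high in gut and ovary markers, and 306 without knockdown ZT8 replicate 3. Of the 448, 18 were called with any 1 of the 12 libraries left out, 4 higher and 14 lower in knockdown, and each of the 18 was also called with the block. The genes that follow are the 6 of the 18 that are named by the rule for named genes.

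The mitochondrial small heat shock gene Hsp22 had 4.91, 5.21 and 5.35 CPM at ZT16, against 8.33, 11.4 and 15.1 CPM at ZT8 in knockdown heads, and 101, 132 and 116 CPM at ZT16, against 7.37, 9.37 and 9.74 CPM at ZT8 in control heads. It fell in knockdown (-1.17 ± 0.21) and rose in control (3.72 ± 0.20), a difference of -4.89 ± 0.29 (adjusted p = 9.08e-05). Arc1 fell in knockdown (-1.06 ± 0.095), and in control it had 388, 405 and 447 CPM at ZT16, against 300.1, 333 and 329.6 CPM at ZT8 and rose (0.36 ± 0.093), a difference of -1.42 ± 0.13 (adjusted p = 0.000871). The lactate dehydrogenase gene Ldh had 14.99, 15.6 and 15.7 CPM at ZT16, against 15.6, 14.7 and 18.03 CPM at ZT8 in knockdown, and 30.8, 36.6 and 28.9 CPM at ZT16, against 10.9, 9.04 and 8.72 CPM at ZT8 in control, a difference of -1.81 ± 0.15 (adjusted p = 0.000419). Knockdown heads overlapped between times and control heads did not.

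In the other direction, retinin rose in knockdown (0.82 ± 0.09), and in control it had 647, 682 and 646 CPM at ZT16, against 804, 699.8 and 678 CPM at ZT8 (-0.14 ± 0.09), a difference of 0.96 ± 0.13 (adjusted p = 0.00747). CG31664 instead went the way of Hsp22, Arc1 and Ldh. It fell by more in knockdown (-1.97 ± 0.12) than in control (-0.50 ± 0.12), a difference of -1.47 (adjusted p = 0.00479). CG17211 had 46.5, 40.1 and 41.3 CPM at ZT16, against 45.03, 42.3 and 37.4 CPM at ZT8 in knockdown, and 31.1, 35.5 and 35.2 CPM at ZT16, against 64.3, 60.01 and 57.1 CPM at ZT8 in control, so that the level overlapped between the times in knockdown and was lower at ZT16 in control (difference 0.87 ± 0.12, adjusted p = 0.00756).

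**Figure D4:**
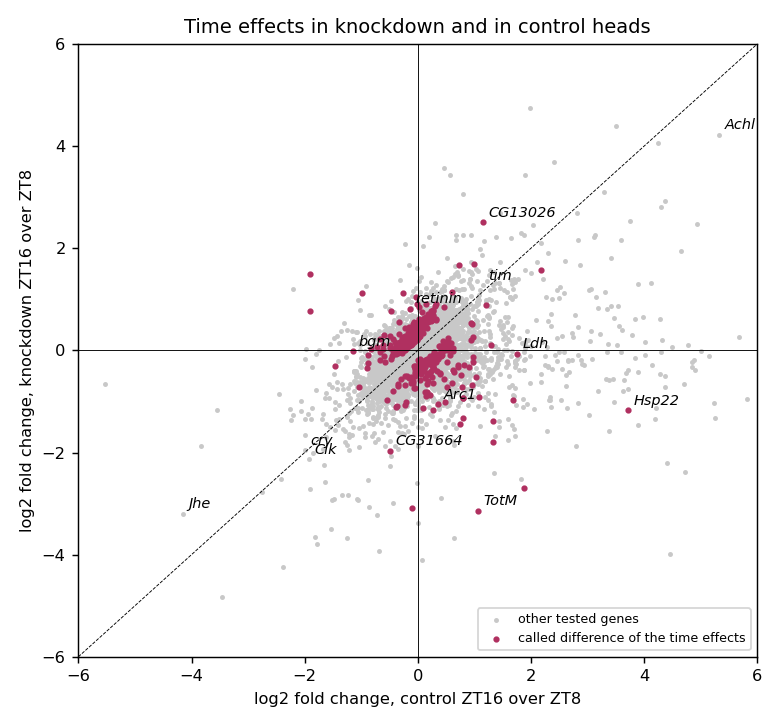
Log2 fold change of ZT16 over ZT8 in knockdown heads (vertical axis) against that in control heads (horizontal axis), one point per tested gene, with red points where the difference was called and 20 genes beyond the axes; the dashed line marks equal effects. The clock genes tim, Clk and cry lie near the dashed line, Achl and Jhe lie on the same side of 0 in both genotypes, and Hsp22, TotM, Ldh and Arc1 lie below it.

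Some lists also differed in their counts between genotypes. Of all tested genes 11.8% rose and 11.4% fell in knockdown heads, and 12.0% rose and 11.8% fell in control heads. Of 20 neuron markers 5 rose and 3 fell in knockdown heads, against 0 and 14 in control heads (median there -0.25; 9 fell without control ZT16 replicate 1 and 8 without control ZT8 replicate 3), and of 36 neurotransmitter receptor genes 9 rose and 2 fell in knockdown heads, against 0 and 21 in control heads (median there -0.21; 13 fell without control ZT8 replicate 2). Across all tested genes log2 fold change and length of the longest transcript had a Spearman rho of 0.022 in knockdown and -0.186 in control. Whether transcript length has a part in these counts was not tested. The difference was called for 9 neuron markers and 13 receptor genes, all higher in knockdown, against 2.67% of all genes. It was called for 0 of either list without knockdown ZT16 replicate 1, control ZT8 replicate 2 or control ZT8 replicate 3, for 0 receptor genes also without knockdown ZT16 replicate 3 or control ZT16 replicate 3, and for 2 of either with the replicate block. Of 15 glia markers 8 rose in knockdown heads and 4 in control heads, and the difference was called for 4, 3 with the replicate block and 0 without knockdown ZT16 replicate 1, control ZT16 replicate 3 or control ZT8 replicate 2 or 3. Cytoplasmic ribosomal protein genes had a median of -0.17 in knockdown heads, against 0.012 in control heads, and the difference was called for 4 of 86, against 4.18% of all genes. It was called for 0 of them with the replicate block, and for 0 without any one of knockdown ZT16 replicates 1 and 3, knockdown ZT8 replicates 1 and 2, control ZT16 replicate 3 and control ZT8 replicates 2 and 3. Activity-regulated genes fell in both, 11 of 13 in knockdown and 8 of 13 in control, where Arc1 rose. Immune genes had 0 rises and 12 falls of 27 in knockdown heads, against 2 and 2 in control heads. Proteasome genes had 1 rise and 6 falls of 32, against 9 and 0. Mitochondrial ribosomal protein genes had 27 rises and 3 falls of 73, against 42 and 0. In these lists the difference was called for 3 of 27, 3 of 32 and 2 of 73 members, all lower in knockdown. Of all tested genes 1.51% were called lower, and the 2 of 73 lay near that share. In the same lists the difference was called for 1, 1 and 0 with the replicate block, and for 0 of each without knockdown ZT16 replicate 1.

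**Figure D5:**
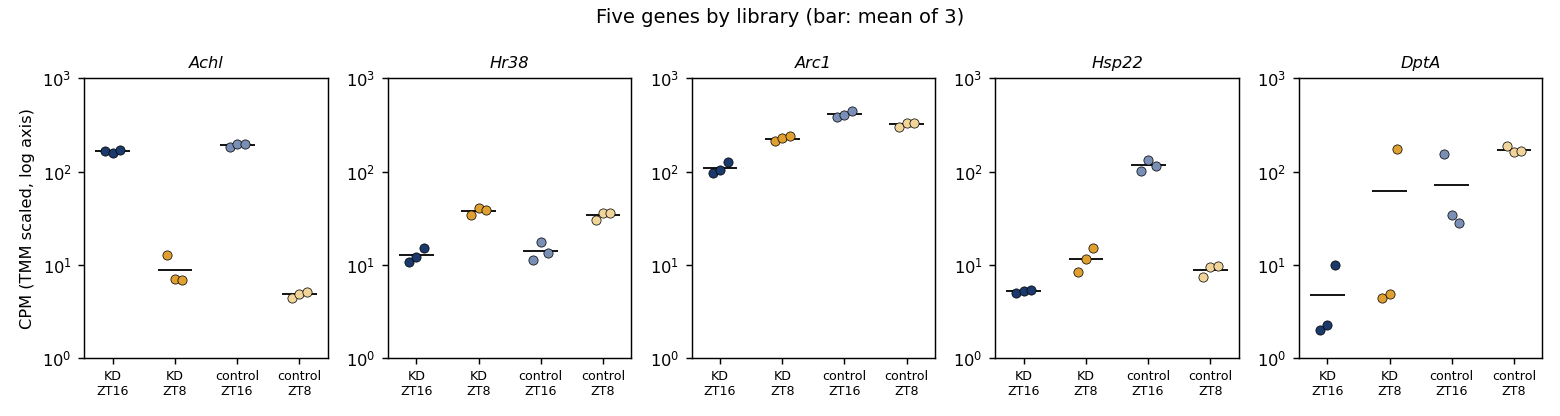
Level of Achl, Hr38, Arc1, Hsp22 and DptA in each library (vertical axes, CPM on a log scale), in the order knockdown ZT16, knockdown ZT8, control ZT16 and control ZT8; points are libraries and bars the means of 3. Achl and Hr38 change in the same direction in both genotypes, Arc1 and Hsp22 fall in knockdown and rise in control, and DptA is far higher in knockdown ZT8 replicate 3 than in the other knockdown libraries.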

How the data were processed

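Poly(A)-selected, stranded RNA-seq libraries of fly heads, 3 per genotype and time, were analysed from the deposited tables. Per the submitters' processing notes, the authors used STAR 2.6.0c, RSEM 1.3.1 and the dm6 build; the strand setting is not given in the sources used here. The deposited expected counts of 35536 transcripts were summed over 17816 gene symbols and rounded. The authors' TPM served as an alternative scale, and their FPKM were not used. Genes were kept with edgeR's filterByExpr (minimum count 10; 10717 genes), scaled by TMM and tested with edgeR 4.0.16 (R 4.3.3; robust quasi-likelihood F test, means of 4 groups, all 12 libraries, 8 residual degrees of freedom), with Benjamini-Hochberg adjustment over all genes and a threshold of 0.05. Transcripts were tested in the same way. The method was tested on simulated data. DESeq2 1.42.0, limma 3.58.1, other factors and filters, TPM plus 0.1 or 1, thinning and each library left out were alternatives.

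Same-numbered knockdown libraries of the 2 times deviated together weakly across genes (Pearson r = 0.106, 0.109 and 0.127). Differently numbered ones had -0.148 to 0.0327. The replicate number was therefore treated as a possible pairing in knockdown heads. The fit with it as a block is given with the calls it ended. The source of this pairing is these correlations and not the labels. They are small, come from the same data and do not establish a pairing. Replicate numbers are those of the sample titles, and the ZT8 library names are numbered differently in part. In control heads same-numbered libraries did not deviate together (-0.00942, 0.0807 and -0.0501), so there the block in the 12 libraries rests on the number alone. Members of the gene lists, the lists and the tests were chosen with earlier results of these data known. Genes named in the text were the core clock genes and CG5808, the 15 largest rises and falls with at least 5 CPM in the higher group that did not overlap and were called with any 1 knockdown library left out, the 10 most abundant genes changed at least 2-fold, the 8 smallest adjusted p-values, the 8 largest differences from control in each direction, and up to 4 genes per list by adjusted p; DptA, AttC, TotA, Dcr-2 and ninaE are given as levels or checks. A search for promoter motifs was not run.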

Additional observations from a re-analysis of the deposited data

Results flagged for a closer look

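For 38 genes named here, the time effect differed between knockdown and control heads by edgeR's quasi-likelihood test of the difference (adjusted p under 0.05). Values are log2 differences, knockdown minus control, ± standard error. Of the 38, 6 were called with any 1 of the 12 libraries left out and 32 lost the call in at least 1 of these fits, with an adjusted p of up to 0.16. With the replicate block 19 kept the call and 19 lost it, with an adjusted p of up to 0.0905. The adjusted p of the difference with the block was, for 10 of the 19 that lost the call, Pdf 0.0509, GstD1 0.0531, skl 0.0531, DAT 0.0544, TotM 0.0555, nrv3 0.0592, CG40298 0.0592, cnc 0.0626, pinta 0.0635 and CG7910 0.0646. For the rest of the 19 it was GstO3 0.0682, nAChRbeta2 0.0682, dl 0.0702, RpL22 0.0715, CG17264 0.0789, TotC 0.0802, RpS16 0.083, CG14502 0.083 and Gat 0.0905. Of the 38, 28 were called without control ZT16 replicate 1, the library high in gut and ovary markers, 37 without control ZT8 replicate 1 and 28 without knockdown ZT8 replicate 3. Genes named from the lists were picked for a small adjusted p of the knockdown time effect, which enters the difference. That choice favours differences with the sign of the knockdown change, so shared signs in a list are no separate result. No explanation was tested.

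The 6 that held without any 1 library were Hsp22 (-4.89 ± 0.29), Ldh (-1.81 ± 0.15), Arc1 (-1.42 ± 0.13) and CG31664 (-1.47 ± 0.17), lower in knockdown, and retinin (0.96 ± 0.13) and CG17211 (0.87 ± 0.12), higher in knockdown.

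Among the flagged genes, stress and immune genes had negative differences: TotM at -4.21 ± 0.80, TotC at -2.71 ± 0.61 and the NF-kappaB gene dl at -0.41 ± 0.10. Both Turandot genes were low in knockdown ZT8 replicate 3, which stands apart. Genes of detoxification also had negative differences, with GstD1 at -0.40 ± 0.095, GstE6 at -0.44 ± 0.081, GstO3 at -0.32 ± 0.081, cnc at -0.32 ± 0.067 and Ugt302C1 at -0.36 ± 0.056. So had the ribosomal genes RpL22 (-0.35 ± 0.081) and RpS16 (-0.31 ± 0.08), the proteasome gene Prosbeta3 (-0.44 ± 0.097) and the retinol-binding gene pinta (-0.41 ± 0.091).

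The flagged neuronal genes had positive differences: Snap25 0.57 ± 0.093, nrv3 0.62 ± 0.13, nAChRbeta2 0.41 ± 0.097, Pdf 0.44 ± 0.085 and DAT 0.45 ± 0.092. So had the glial genes Gat (0.55 ± 0.14), Inx2 (0.41 ± 0.073) and Mdr65 (0.54 ± 0.087) and the death gene skl (0.83 ± 0.16).

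Among the largest differences of the other genes, bgm, for an acyl-CoA synthetase, was at 1.14 ± 0.18 and had 161, 183 and 147 CPM at ZT16, against 185, 164 and 146 CPM at ZT8 in knockdown heads, and 74.2, 65.8 and 56.7 CPM at ZT16, against 166, 139 and 132 CPM at ZT8 in control heads. Its knockdown groups overlapped and its control groups did not. Positive differences were also called for CG13026 (1.36 ± 0.28), CG17264 (1.16 ± 0.28), CG40298 (1.08 ± 0.26), the chitinase gene Cht6 (0.92 ± 0.15), Gasp (0.89 ± 0.16) and CG14153 (0.70 ± 0.12), and negative ones for CG7910 (-3.11 ± 0.61), CG5966 (-2.20 ± 0.35), CG7695 (-2.14 ± 0.46) and CG14502 (-1.63 ± 0.40). The knockdown time effect of CG7695 (-1.33 ± 0.33) lost its call without knockdown ZT16 replicate 1 (adjusted p = 0.0669) or knockdown ZT8 replicate 3 (0.0619), and that of CG7910 (-1.79 ± 0.45) without knockdown ZT16 replicate 1 (0.0637) or 2 (0.0528).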

How the results depend on the processing

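Of 141 named genes called with time in knockdown heads, 124 were called in the same direction under every alternative run, and 130 with any 1 library left out. These counts do not stand for all 2488 called genes. The largest changes were named only if called with any 1 knockdown library left out, and most others for a small adjusted p. The 1268 rises were 654 and 652 on TPM plus 0.1 and plus 1, and 834 to 1443 with 1 library left out; the 1220 falls were 738 to 1428 with 1 left out. The 448 differences from control were 276 with upper quartile factors, 918 with DESeq2, 73 and 78 on TPM plus 0.1 and plus 1, 240 with no filter, and 19 to 1107 with 1 library left out. Added after seeing the data, a term for the ZT8 libraries numbered 4 or 5 in their library names gave 806. These are control ZT8 replicates 2 and 3 and knockdown ZT8 replicate 3, the ZT8 libraries with the low share of ribosomal RNA. With the replicate number as a block the differences were 137, the rises 1173 and the falls 1107; in the 6 knockdown libraries alone the block gave 1171 rises and 1118 falls, and 174 transcripts against 2693. Calls of named genes that the block ended are given with their genes. DESeq2 called 4693 transcripts, and with 1 library left out 1590 to 2940 were called. The 2542 genes called in control heads were 1532 to 2810 with 1 left out. For cyc the sign turned on TPM plus 0.1 (-0.008) and plus 1 (-0.008), and for CG5808 without knockdown ZT16 replicate 1 (-0.002) or knockdown ZT8 replicate 2 (-0.117; range -0.117 to 0.162 with 1 left out); neither was called. The cause was not tested. Upper quartile factors gave 1072 rises and 1344 falls. Calls of genes under about 5 CPM rest on few reads. Antimicrobial genes, not called by edgeR, gave up to 3 falls with 1 library left out and 5 calls with DESeq2. Time of day cannot be told apart from differences in preparation between the libraries of the 2 times.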

Other observations

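Enzymes of tyrosine breakdown were lower at ZT16 in all 4 genes looked at, a set chosen after its values were seen. Hpd, for the dioxygenase that acts early in this pathway, had 62.8, 72.7 and 67.8 CPM at ZT16, against 234, 208 and 195 CPM at ZT8 in knockdown heads (log2 fold change -1.65 ± 0.085, adjusted p = 3.38e-07). The homogentisate dioxygenase gene hgo had 11.1, 11.4 and 9.45 CPM at ZT16, against 33, 27.8 and 28.5 CPM at ZT8 (log2 fold change -1.48 ± 0.12, adjusted p = 9.43e-06). GstZ2, for a maleylacetoacetate isomerase, was at -0.96 ± 0.12 and Faa, for the last enzyme, at -0.65 ± 0.13. Groups overlapped in none of the 4 genes, where 44.2% of all tested genes had no overlap. For Hpd and hgo this was a condition of being named among the largest falls. In control heads they fell as well: Hpd was at -1.22 ± 0.084, hgo at -0.97 ± 0.12, GstZ2 at -1.08 ± 0.12 and Faa at -0.42 ± 0.13 on the log2 scale. Hpd overlaps CtIP, whose reads can enter its counts.

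Knockdown ZT8 replicate 3 differed from the rest also in genes outside the comparison. The storage protein gene Lsp2 had 536, 531 and 379.7 CPM at ZT16, against 856, 525 and 8.3 CPM at ZT8, with replicate 3 of ZT8 far below the other 5 libraries. The yolk protein gene Yp2 had 4548, 6233 and 4777 CPM at ZT16, against 4802, 5885 and 12590.0 CPM at ZT8, with the same library the highest. Neither gene was called with time (0.058 ± 1.44, adjusted p = 0.983 and -0.58 ± 0.40, adjusted p = 0.338).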
